A study of Mus musculus with 20 samples.

Results

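Skeletal muscle of very old mice was examined for 10 genes of the endosomal system that senses nucleic acids: Unc93b1, Pld4, Pld3, Tlr3, Tlr7, Tlr8, Tlr9, Tlr13, Myd88 and Irak4. They were taken by name, as 10 of the 55416 genes in the count table, and all 10 were found there. The set was chosen by its readout, the lower counts of Unc93b1 and Pld4 in treated than in control muscles of this same study, so the treatment differences below are given as descriptions. Calls from the fit across all genes are given beside their share or number over all genes, and support nothing here. The study asked how aged muscle responds early to the material that pluripotent stem cells secrete. The samples were quadriceps of male wild-type C57BL/6J mice aged 26 to 28 months that had been fasted for 4 h, received a single injection of 50 µL into the muscle and were sampled 3 h later. The 10 control muscles received saline and the 10 secretome muscles received the stem cell secretome product. No allele or transgene differed between the groups. RNA was depleted of ribosomal RNA and sequenced as stranded total RNA.

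The libraries held 13286983 to 22987237 counts (control median 17016222.5, secretome median 19301561). Skeletal muscle fibre genes (Acta1, Ckm, Ttn, Myh4, Myh1 and Myh2) summed to 111326 to 322841 CPM (counts scaled to a library total of 1000000, with TMM factors) in control and 206508 to 309236 CPM in secretome muscles, so the labelled tissue was present in each library. The share of counts on the single gene Ttn separated the libraries by their number in the file header. It was 7.02 to 11.03% in libraries 1 to 5 (control replicates 1 to 5), 16.4 to 21.1% in libraries 6 to 15 (control 6 to 10 and secretome 1 to 5) and 14.2 to 14.7% in libraries 16 to 20 (secretome 6 to 10). The sources do not say what the library numbers mark, and treatment differences of the 10 genes, and of the genes named from the pathway lists, are therefore also given within libraries 6 to 15.

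Cells that engulf material deliver nucleic acids to endolysosomes, where a small family of Toll-like receptors reads them. UNC93B1 is a membrane chaperone that carries these receptors out of the endoplasmic reticulum and stays with them, and without it they do not reach the compartment in which they signal. TLR3 recognises double-stranded RNA, TLR7 and TLR8 recognise single-stranded RNA and its breakdown products, TLR9 recognises DNA with unmethylated CpG, and mouse TLR13 recognises bacterial ribosomal RNA. PLD3 and PLD4 are exonucleases of the same compartment that degrade single-stranded nucleic acids and so limit what the receptors see. All of these receptors except TLR3 signal through the adaptor MYD88 and the kinase IRAK4. In muscle, most of these genes are best known from resident and infiltrating immune cells, above all macrophages.

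The 250 bases before the gene start are shown for Pld4 and Tlr9, both with lower fitted levels after secretome. They are also shown for Pld3, the paralog of Pld4, whose fitted level was 88.4% of control. They come from RefSeq on GRCm38.p6, on the strand of the gene, written 5′ to 3′. Capitals mark matches, on either strand, to GAGGAA (the core bound by PU.1, a transcription factor of myeloid and B cells) or to the interferon-stimulated response element, searched as GAAA, any 2 bases and GAAA. No match of one overlaps a match of the other in these windows. Of the 10 genes, 8 matched the table, all but Unc93b1 and Tlr7. The sequences lie at chr12:112760405-112760654 (plus strand) for Pld4, chr9:106222348-106222597 (plus strand) for Tlr9 and chr7:27553219-27553468 (minus strand) for Pld3.
Pld4: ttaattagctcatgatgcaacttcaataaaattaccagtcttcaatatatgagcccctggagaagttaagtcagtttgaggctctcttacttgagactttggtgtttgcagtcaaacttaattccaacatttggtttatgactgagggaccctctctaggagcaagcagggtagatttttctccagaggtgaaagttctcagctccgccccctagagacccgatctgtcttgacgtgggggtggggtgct
Tlr9: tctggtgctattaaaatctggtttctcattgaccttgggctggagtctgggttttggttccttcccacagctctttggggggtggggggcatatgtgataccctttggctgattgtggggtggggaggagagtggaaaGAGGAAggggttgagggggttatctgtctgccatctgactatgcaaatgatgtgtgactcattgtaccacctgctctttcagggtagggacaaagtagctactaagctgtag
Pld3: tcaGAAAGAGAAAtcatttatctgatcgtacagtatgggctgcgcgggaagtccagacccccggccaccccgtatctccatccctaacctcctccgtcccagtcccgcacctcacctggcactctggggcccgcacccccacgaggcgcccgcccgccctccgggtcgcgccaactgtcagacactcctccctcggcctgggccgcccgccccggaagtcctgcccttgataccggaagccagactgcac
GAGGAA was present in 3 of the 8 promoters, starting 112 bases before the gene start in Tlr9 (-112), at -83 in Tlr13 and at -77 in Tlr8, and 23.3% of all 32851 promoters in the table held it. The response element was present in Pld3 at -247 and in Myd88 at -40, against 2.98% of all promoters. Neither motif was found in the Pld4 window.

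Unc93b1, the chaperone, was less abundant in secretome than in control muscles. Its lowest, median and highest levels were 5.22, 10.2 and 19.7 CPM in control muscles (79 to 351 counts) and 3.29, 4.49 and 7.85 CPM in secretome muscles (61 to 166 counts). All 10 secretome muscles lay below the control median and 6 of them lay below every control, so the groups overlapped in part. The means were 10.1 ± 4.37 and 5.06 ± 1.38 CPM (SD, n = 10 each), and the fitted log2 fold change was -0.99 ± 0.21 (SE), or 50.3% of control. In these whole-muscle samples, fewer cells of a type and less RNA per cell cannot be told apart.

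Within libraries 6 to 15, the control muscles had 12.2, 6.52, 5.22, 12.3 and 5.28 CPM of Unc93b1 and the secretome muscles 4.01, 4.41, 4.48, 4.49 and 4.04 CPM. Here the groups did not overlap, and the secretome muscles lay within a narrow band (SD 0.240 CPM, against 3.63 CPM in control). In the other libraries the controls had 9.99, 10.5, 19.7, 11.7 and 7.37 CPM and the secretome muscles 6.31, 6.11, 7.85, 3.29 and 5.62 CPM, with 1 secretome muscle above the lowest control. The log2 fold change was -0.94 ± 0.25 (SE, n = 5 each) in libraries 6 to 15 and -1.02 ± 0.27 in the others. The difference between these 2 fold changes was 0.06 ± 0.39 (SE, edgeR quasi-likelihood test of the interaction, adjusted p = 0.972), and 0.0553% of all 14471 genes tested passed that interaction test at a 5% false discovery rate (FDR).

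Pld4, one of the exonucleases, was the other gene the set was built around. Its lowest, median and highest levels were 2.55, 4.98 and 8.61 CPM in control muscles (44 to 153 counts) and 1.40, 2.14 and 3.71 CPM in secretome muscles (24 to 72 counts). All 10 secretome muscles lay below the control median, and the groups overlapped between the lowest controls and the highest secretome muscles. The means were 5.13 ± 1.80 and 2.41 ± 0.821 CPM (SD, n = 10 each), with a log2 fold change of -1.09 ± 0.22 (SE), or 47.1% of control.

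In libraries 6 to 15 the Pld4 levels were 5.90, 4.23, 4.23, 4.55 and 2.55 CPM in control and 1.46, 3.71, 1.96, 2.00 and 1.85 CPM in secretome muscles. In the others they were 5.45, 5.40, 8.61, 7.18 and 3.23 CPM in control and 2.91, 3.14, 3.40, 1.40 and 2.28 CPM in secretome muscles. In each set, 4 of 5 secretome muscles lay below every control of that set. The log2 fold changes were -0.96 ± 0.27 and -1.18 ± 0.29 (SE, n = 5 each), which differed by 0.21 ± 0.41 (edgeR quasi-likelihood test, adjusted p = 0.896).

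**Figure D1:**
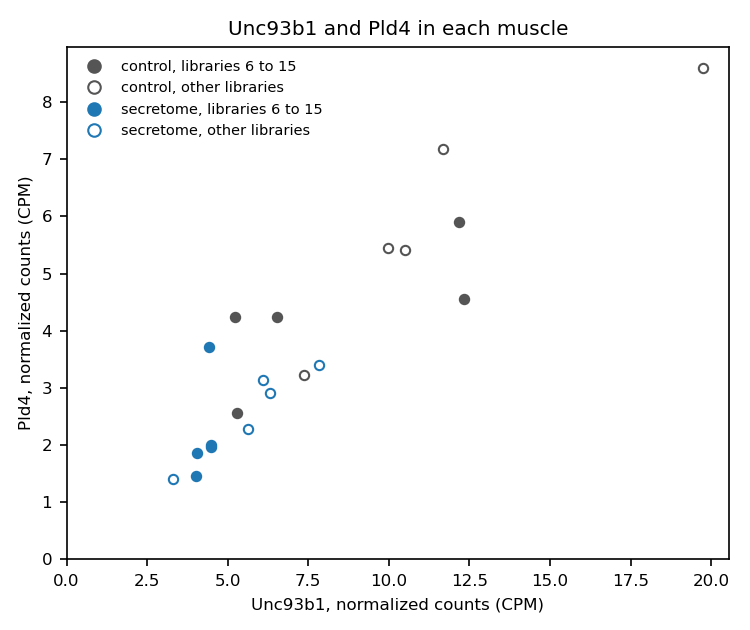
Level of Pld4 (vertical axis, CPM) against Unc93b1 (horizontal axis, CPM) in each of the 20 muscles, in grey for control and blue for secretome, with filled symbols for libraries 6 to 15 and open symbols for the others. Control replicate 3 has the highest level of both genes, at 19.7 and 8.61 CPM, and most secretome muscles sit in the lower left corner.

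Pld3, the paralog of Pld4, was the steadiest of the set between muscles and had a mean close to control after secretome. Its levels were 10.9, 15.2 and 17.4 CPM (lowest, median and highest) in control and 9.23, 12.98 and 15.3 CPM in secretome muscles. Of the 10 secretome muscles, 9 lay below the control median and 2 below every control, while 5 controls lay above every secretome muscle. Within libraries 6 to 15, all 5 secretome muscles lay below the control median of that set, against 3 of 5 in the others. The means were 14.5 ± 2.16 and 12.8 ± 2.21 CPM (SD, n = 10 each), with a log2 fold change of -0.18 ± 0.11 (SE). Within libraries 6 to 15 it was -0.19 ± 0.12 and in the others -0.15 ± 0.17.

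Among the receptors, Tlr9, the DNA receptor, had the largest difference. It had 0.397, 1.31 and 4.33 CPM (lowest, median and highest) in control muscles, from 6 to 77 counts, and 0.215, 0.876 and 1.05 CPM in secretome muscles, from 4 to 19 counts. All 10 secretome muscles lay below the control median, but the lowest control, replicate 8, lay below 9 of them. The log2 fold change was -1.07 ± 0.33 (SE, n = 10 each), or 47.8% of control, with -1.24 ± 0.45 in libraries 6 to 15 and -0.91 ± 0.44 in the others. Without control replicate 3, the highest muscle, it was -0.77.

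The RNA receptors had smaller differences, on few counts. Tlr7, a receptor for single-stranded RNA, had 10 to 54 counts in control and 7 to 43 in secretome muscles, and a log2 fold change of -0.44 ± 0.32 (SE, n = 10 each), which was -0.27 without control replicate 4. Tlr8, its close relative, had 1 to 43 and 3 to 62 counts and a log2 fold change of 0.16 ± 0.43, which was -0.12 without secretome replicate 8. Within libraries 6 to 15 these were -0.45 ± 0.43 for Tlr7 and 0.003 ± 0.415 for Tlr8 (SE, n = 5 each). Tlr3, the receptor for double-stranded RNA, had 20 to 49 and 16 to 61 counts and a log2 fold change of 0.11 ± 0.22, with 0.10 ± 0.28 within libraries 6 to 15 and 0.05 to 0.20 with 1 muscle left out (lowest without secretome replicate 10, highest without secretome replicate 1). For each of these 3 genes the groups overlapped over most of their range.

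Tlr13, the receptor for bacterial ribosomal RNA, varied widely from muscle to muscle, with 13 to 101 counts in control and 8 to 103 in secretome muscles. Control replicate 3 (5.68 CPM) and secretome replicates 7 and 8 (3.80 and 4.87 CPM) were the high muscles, and the others lay between 0.412 and 2.61 CPM. Its log2 fold change was -0.14 ± 0.45 (SE, n = 10 each) over all muscles, -0.77 ± 0.43 in libraries 6 to 15 and 0.27 ± 0.66 in the others, and 0.23 over all muscles without control replicate 3. The difference between the library sets was -1.03 ± 0.86 (edgeR quasi-likelihood test, adjusted p = 0.698).

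The signalling genes shared by most of the receptors did not have a steady direction. Myd88, the adaptor, ranged from 3.62 to 26.9 CPM in control and from 3.46 to 22.8 CPM in secretome muscles, with control replicate 3 and secretome replicate 9 highest. Its log2 fold change was 0.01 ± 0.37 (SE, n = 10 each), with -0.23 ± 0.30 in libraries 6 to 15 and 0.25 ± 0.63 in the others. Irak4, the kinase that MYD88 recruits, had 31 to 92 counts in control and 26 to 60 in secretome muscles and a log2 fold change of -0.24 ± 0.21, which was -0.05 without control replicate 3 and -0.06 ± 0.26 within libraries 6 to 15. Parts of the exons of Myd88 (290 bases), Irak4 (395 bases) and Tlr3 (381 bases) overlap a gene on the opposite strand (Acaa1a, Twf1 and Gm45542), and whether the counting used strand is not given in the sources used here, so their counts may hold reads of these neighbours.

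**Figure D2:**
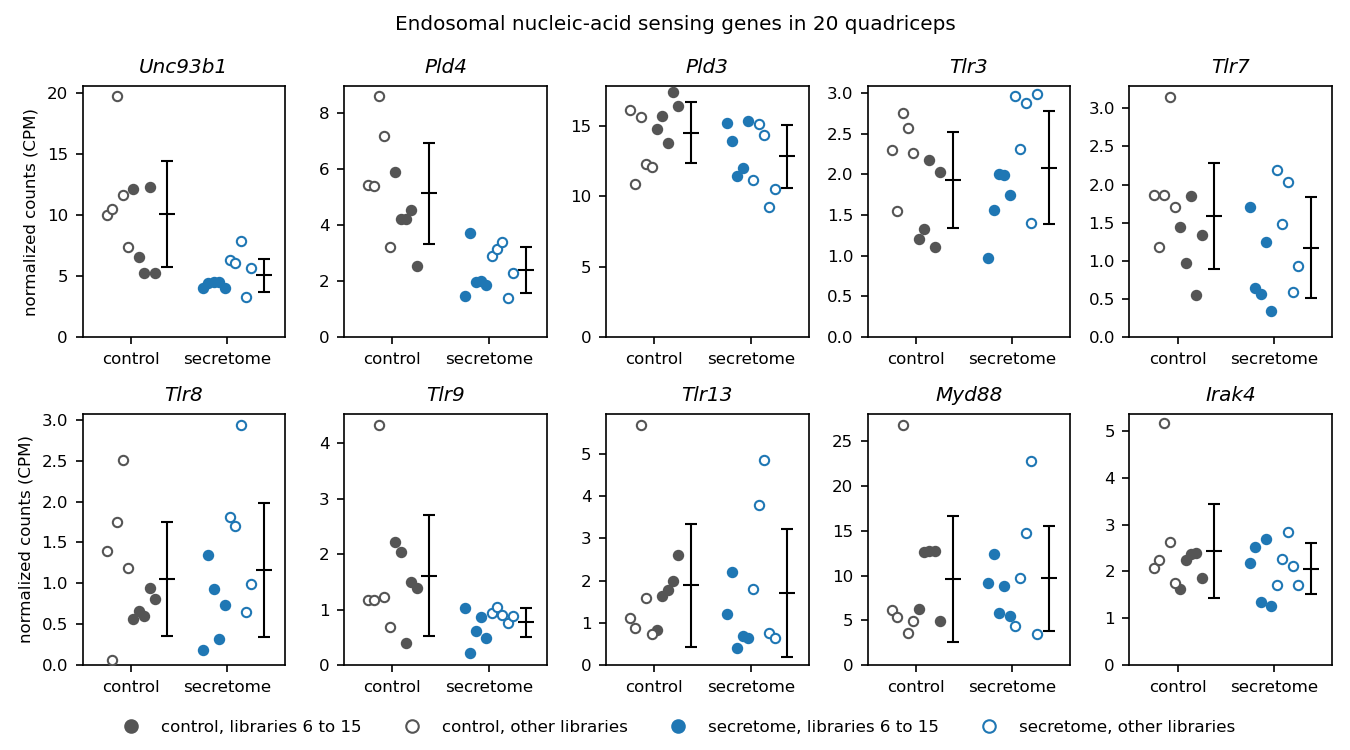
Level of each of the 10 genes (vertical axis, CPM, 1 panel per gene) in each muscle, by group, with filled symbols for libraries 6 to 15, open symbols for the others, and bars for the mean and SD of 10 muscles. Unc93b1, Pld4 and Tlr9 have lower secretome means with overlapping groups, and the other genes have widely shared ranges.

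Over the 10 genes, 7 had a lower and 3 a higher fitted level in secretome muscles, with a median log2 fold change of -0.21, beside 55.9% of all 14471 genes lower and a median of -0.03. None of the 10 passed 5% FDR in the edgeR quasi-likelihood test, where 0.00691% of all genes did (1 gene, not of this set). At an unadjusted p below 0.05, 3 were called lower (Unc93b1, Pld4 and Tlr9), beside 9.21% of all genes called lower. DESeq2 called 2 lower at 5% FDR (Unc93b1 and Pld4) and none higher, beside 0.843% lower and 0.404% higher of the genes it tested. At an unadjusted p below 0.05, the same 3 genes were called lower in libraries 6 to 15 and 2 (Unc93b1 and Pld4) in the others, beside 4.92% and 9.56% of all genes. All 10 secretome muscles lay below the control median for 3 genes (Unc93b1, Pld4 and Tlr9), which held for 3.39% of all genes. In libraries 6 to 15, all 5 secretome muscles lay below all 5 controls for Unc93b1 alone, which held for 1.09% of all genes. In the other libraries this held for none of the 10 and for 2.39% of all genes. Because the set was built on this contrast, nothing is read from these counts.

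**Figure D3:**
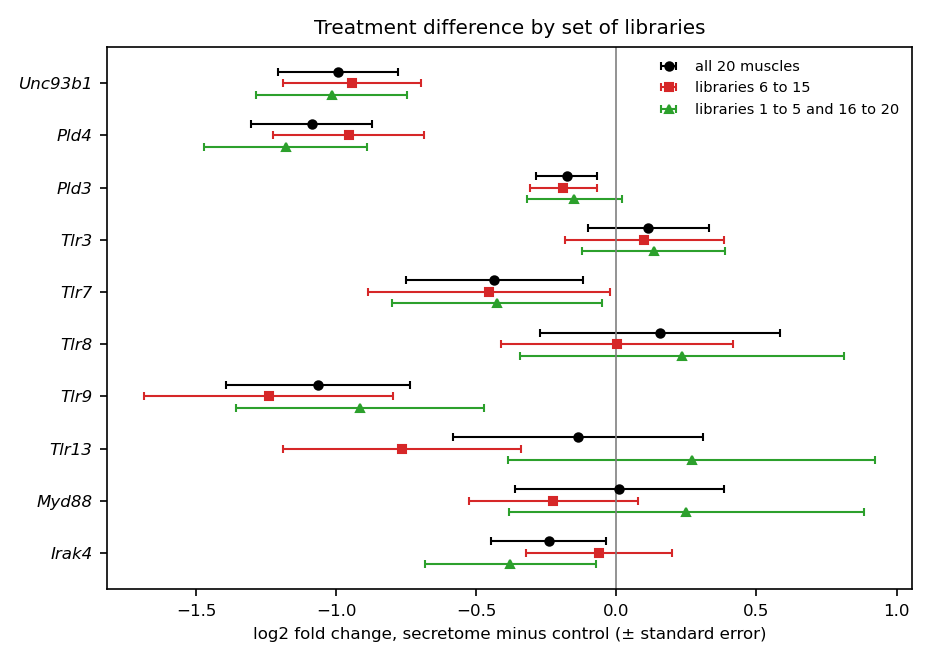
Fitted log2 fold change of secretome against control (horizontal axis) for each of the 10 genes, with bars of 1 SE, over all 20 muscles, within libraries 6 to 15 and within the other libraries. Unc93b1, Pld4 and Tlr9 sit near -1 in all 3 fits, while Tlr13 and Myd88 lie on opposite sides of 0 in the 2 library sets.

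Scaled to exonic length as RPKM (CPM per 1000 exonic bases), Pld3 was the most abundant of the set in control muscles at 4.96 ± 0.740 (SD, n = 10), followed by Myd88 at 3.74 ± 2.74, Unc93b1 at 3.32 ± 1.44 and Pld4 at 1.48 ± 0.521. Myd88 and Unc93b1 did not differ beyond their spread. Irak4 and the 5 receptors followed between 0.292 and 0.485 RPKM, and neighbours in that order lay within each other's spread. In secretome muscles the first 5 places were the same, with Unc93b1 at 1.67 ± 0.455 and Pld4 at 0.696 ± 0.237 RPKM. Among the receptors Tlr9 had the highest mean in control (0.464 ± 0.316 RPKM) and the lowest in secretome muscles (0.222 ± 0.0756 RPKM), and the receptors' spreads overlapped in both groups.

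Unc93b1 and Pld4 also varied together from muscle to muscle once the mean of each treatment group had been subtracted, a measure that does not use the treatment difference. Over 20 muscles, the Pearson r of their log2 CPM was 0.796 (permutation test within treatment groups, two-sided, adjusted p = 0.0027 over 45 pairs of the set, unadjusted p = 6e-05) and Spearman's rho was 0.771 (adjusted p = 0.0036). Without the 2 muscles farthest from the median of Unc93b1, r was 0.796, and with any 1 muscle left out it ranged from 0.748 to 0.875. Within the 10 muscles of libraries 6 to 15 r was 0.524, which did not pass the threshold (permutation test, unadjusted p = 0.053, adjusted p = 0.795 over 45 pairs). With the mean of each treatment and library set subtracted, r was 0.755. Depth and the composition of each library are shared by both values of a muscle.

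Across all 45 pairs the median r was 0.314, with a range of -0.254 to 0.796. The other pairs that passed 5% FDR were Tlr13 with Irak4 (r = 0.694, permutation adjusted p = 0.0222), Myd88 with Irak4 (r = 0.683, permutation adjusted p = 0.0222) and Tlr3 with Tlr8 (r = 0.638, permutation adjusted p = 0.0325). Spearman's rho of these pairs was 0.669, 0.602 and 0.683 (permutation adjusted p = 0.0441, 0.0599 and 0.0441), so Myd88 with Irak4 did not pass by rank, where Pld4 with Tlr8 did (rho = 0.633, permutation adjusted p = 0.048). Without the 2 muscles farthest from the median, the r were 0.491, 0.583 and 0.613. Within libraries 6 to 15 they were 0.620, 0.798 and 0.305, and no pair passed there. The count of pairs rests on single muscles, with 1 pair past the threshold without control replicate 3 and 1 without secretome replicate 8. Unc93b1 with Tlr9 had r = 0.590 (permutation adjusted p = 0.110), and 0.250 without the 2 farthest muscles.

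The genes whose levels followed Unc93b1 most closely, among 13171 genes with a mean of at least 1 CPM, were genes of antigen presentation on MHC class II. They were H2-Aa (r = 0.959, treatment means subtracted, 20 muscles), Cd74 (0.955), H2-Ab1 (0.950), H2-Eb1 (0.938) and H2-DMb1 (0.901). Cd74 encodes the invariant chain of MHC class II and the others encode chains of its molecules. Without control replicate 3, these r lay between 0.872 and 0.944. For Pld4 the closest were Tmem176b (0.810), Fcer1g, a signalling chain of Fc receptors (0.805), Siglec1, a sialic acid receptor of macrophages (0.798), Unc93b1 (0.796) and H2-Aa (0.796). These correlations across muscles share library depth and composition and are given as descriptions.

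Immune marker genes also differed between muscles and groups. The 10 macrophage markers summed to 142 ± 56.0 CPM in control (87.8 to 255, highest in replicate 3) and 103 ± 48.8 CPM in secretome muscles (55.4 to 210, highest in replicate 8), with Lyz2 and Mrc1 the most abundant. Of these, 9 were tested and all 9 had a negative log2 fold change, beside 55.9% of all genes. In edgeR 3 were lower at an unadjusted p below 0.05, beside 9.21% of all genes, and none passed 5% FDR, while DESeq2 called 1 lower (Csf1r), beside 0.843% of its genes. The 5 B cell markers summed to 3.23 ± 3.02 CPM in control (0.529 to 8.26) and 0.658 ± 0.241 CPM in secretome muscles (0.378 to 1.18). They had too few counts for edgeR, and DESeq2 called 3 of the 5 lower at 5% FDR, beside 0.843% of its genes. The 5 T cell markers summed to 0.116 to 6.02 CPM in control and 0 to 1.10 CPM in secretome muscles. DESeq2 tested 3 of them and called 1 lower. The 6 neutrophil markers ranged from 1.36 to 96.2 CPM in control (highest in replicate 3) and 1.46 to 106 CPM in secretome muscles (highest in replicate 8), with Csf3r the most abundant. Their summed means were 16.9 ± 28.3 and 22.9 ± 33.7 CPM (SD), and their medians 9.65 and 8.91 CPM. In edgeR 4 were tested, 1 lower and 3 higher, with a median log2 fold change of 1.12. None of the 4 had an unadjusted p below 0.05. The 8 dendritic cell markers ranged from 15.8 to 34.8 and from 12.5 to 24.7 CPM, and most of that was Zbtb46. Zbtb46 had means of 15.4 ± 3.13 and 15.4 ± 2.96 CPM (SD). Each of the other dendritic cell markers had a lower mean in secretome muscles, most of them at levels below 1 CPM. Of the 8 markers, DESeq2 tested 6 and called 1 lower. Endothelial markers summed to 143 ± 33.3 and 138 ± 23.5 CPM and fibroblast markers to 405 ± 203 and 311 ± 79.8 CPM (SD, n = 10 each). Within libraries 6 to 15, 2 of 4 fibroblast markers were lower (median log2 fold change 0.10), against 4 of 4 in the others (-0.66). For endothelial markers these were 4 of 4 (-0.25) and 0 of 4 (0.20), and for macrophage markers 9 of 9 (-0.68) and 7 of 9 (-0.22). For neutrophil markers they were 2 of 4 (0.06) and 1 of 3 (1.68). Muscle fibre markers had 4 of 6 lower (-0.08) within libraries 6 to 15, against 0 of 6 (0.81) in the others. Over all genes they were 7532 of 14469 and 8188 of 14667. No marker was at 0 throughout a group, and the part of these cells in the treatment differences of Unc93b1, Pld4 and Tlr9 was not tested.

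With treatment means subtracted, Unc93b1 followed the summed macrophage markers with r = 0.758 (permutation adjusted p = 0.0012 over 40 pairs of gene and list) and Pld4 with r = 0.697 (permutation adjusted p = 0.006). Spearman's rho was 0.699 and 0.695 (permutation adjusted p = 0.011 for each). The r were 0.630 and 0.589 without the 2 farthest muscles and 0.596 and 0.477 within libraries 6 to 15. Tlr8 (r = 0.773, permutation adjusted p = 0.00187) and Tlr13 (r = 0.759, permutation adjusted p = 0.0027) followed the same list, with rho of 0.835 and 0.609 (permutation adjusted p = 0.0012 and 0.0401) and r of 0.292 and 0.499 within libraries 6 to 15. The neutrophil markers were followed by Tlr13 (r = 0.823, permutation adjusted p = 0.0012), Pld3 (r = 0.716, permutation adjusted p = 0.00496) and Myd88 (r = 0.669, permutation adjusted p = 0.00914), with rho of 0.779, 0.711 and 0.683 (permutation adjusted p = 0.004, 0.011 and 0.011) and r of 0.795, 0.700 and 0.279 within libraries 6 to 15. Myd88 no longer passed without control replicate 3 (r = 0.568, permutation adjusted p = 0.103). Irak4 passed with both lists by Pearson's r (0.576 and 0.601) and with neither by rank (rho = 0.478 and 0.514), but each was 0.298 without the 2 farthest muscles and so rests on those muscles. Tlr9 had r = 0.346 with the macrophage and 0.263 with the B cell markers, and neither passed. The muscle fibre markers went the other way for Unc93b1 (r = -0.625, permutation adjusted p = 0.060), which did not pass. In all, 9 of 40 pairs passed by Pearson's r and 9 by Spearman's rho. The latter included Tlr7 with the macrophage markers (rho = 0.585) and Tlr3 with the muscle fibre markers (rho = -0.558), with a permutation adjusted p of 0.0493 for each. Neither pair passed by Pearson's r (0.510 and -0.455), and r was -0.326 and 0.153 within libraries 6 to 15.

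**Figure D4:**
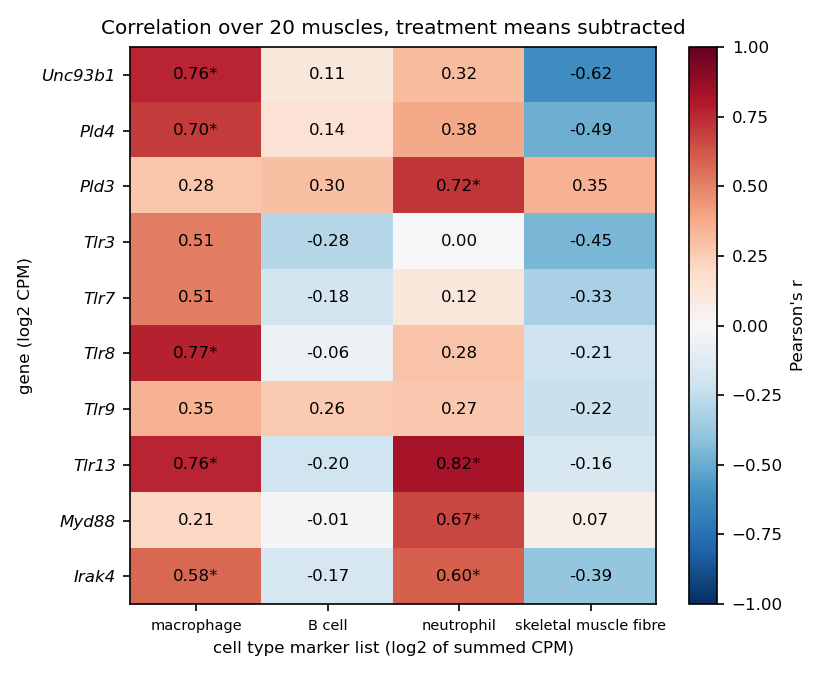
Pearson r across 20 muscles between each of the 10 genes and the summed macrophage, B cell, neutrophil and muscle fibre markers, on the log2 CPM scale with the treatment mean subtracted, with an asterisk where the permutation test passed 5% FDR. Unc93b1, Pld4, Tlr8 and Tlr13 have r of 0.697 to 0.773 with the macrophage markers, and Tlr13, Pld3 and Myd88 have 0.669 to 0.823 with the neutrophil markers.

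The wider pathway was described through lists of genes that act before or after the receptors. Beside the counts below, 55.9% of all genes were lower by sign, and at an unadjusted p below 0.05 in edgeR 9.21% were lower and 6.52% higher. The folding and trafficking genes had 10 of 11 tested, 3 lower, a median log2 fold change of 0.05 and none with an unadjusted p below 0.05. Within libraries 6 to 15, 7 of 10 were lower with a median of -0.05, and 1 gene (Vamp3) was higher at an unadjusted p below 0.05. In that fit 7532 of all 14469 genes were lower, with a median of -0.01, and 727 were higher at the same threshold. Their smallest p values belonged to Vamp3, a vesicle fusion protein (0.14 ± 0.08 SE, edgeR adjusted p = 0.388), and Cnpy3, a folding partner of the receptors (-0.27 ± 0.17, edgeR adjusted p = 0.432), with 0.29 ± 0.10 and -0.18 ± 0.21 within libraries 6 to 15. All 5 receptor-cleaving proteases were tested and were lower by sign, with a median of -0.26, and 1 had an unadjusted p below 0.05. It was Ctss, cathepsin S, with 9.06 ± 5.53 CPM in control and 4.48 ± 2.68 CPM in secretome muscles (SD, n = 10 each) and a log2 fold change of -1.01 ± 0.33 (SE, edgeR adjusted p = 0.174). Ctsk, cathepsin K, followed at -0.52 ± 0.28 (edgeR adjusted p = 0.363). Ctss and Ctsk had -1.44 ± 0.30 and -0.21 ± 0.35 within libraries 6 to 15. All 5 proteases were lower in that fit (median -0.40), 3 of them at an unadjusted p below 0.05, beside 4.92% of all genes. In the other libraries 3 of 5 were lower, with a median of -0.11.

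Of the 9 nucleases, 7 were tested and 5 were lower, with a median log2 fold change of -0.17. Dnase2a, the lysosomal DNase, had -0.59 ± 0.22 (SE, edgeR adjusted p = 0.213). Rnaset2a, a lysosomal RNase, had 0.72 ± 0.28 (edgeR adjusted p = 0.237), a value that is uncertain because its copy Rnaset2b is nearly identical. Dnase2a had -0.32 ± 0.26 and Rnaset2a 0.29 ± 0.29 within libraries 6 to 15. Dnase1l3, a secreted DNase of macrophages and dendritic cells, had 0 to 41 counts in control and 0 to 9 in secretome muscles. It had too few counts for edgeR, and DESeq2 called it lower (adjusted p = 0.032).

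All 21 signalling genes downstream were tested, with 11 lower, a median log2 fold change of -0.03, and 4 lower and 3 higher at an unadjusted p below 0.05. Ikbke, a kinase that activates interferon regulatory factors, had 3.66 ± 1.164 CPM in control and 2.06 ± 0.690 CPM in secretome muscles (SD, n = 10 each). Its log2 fold change was -0.83 ± 0.22 (SE, edgeR adjusted p = 0.129), and DESeq2 called it lower (adjusted p = 0.0295). Map3k7, the kinase TAK1, had 0.33 ± 0.11 (edgeR adjusted p = 0.174). Irf7, the factor through which TLR7 and TLR9 induce interferon, had 3.98 ± 2.23 and 2.24 ± 0.695 CPM and a log2 fold change of -0.83 ± 0.25 (edgeR adjusted p = 0.158). Ikbke had -0.92 ± 0.20, Map3k7 0.25 ± 0.10 and Irf7 -0.44 ± 0.26 within libraries 6 to 15.

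Of the 15 transcriptional targets, 9 were tested and 8 were lower, with a median of -0.37 and 2 with an unadjusted p below 0.05. These were the interferon-induced genes Ifit3 (-0.70 ± 0.21 SE, edgeR adjusted p = 0.158) and Mx1 (-1.08 ± 0.48, edgeR adjusted p = 0.283). Ifit3 had -0.27 ± 0.23 within libraries 6 to 15 and -1.23 ± 0.28 in the others, where the Ttn share also differed between groups, and the difference of 0.95 ± 0.36 did not pass (edgeR quasi-likelihood test, adjusted p = 0.308). Mx1 had -1.18 ± 0.47 within libraries 6 to 15. Ifnb1, which encodes interferon beta, had 0 counts in all 20 muscles. A single library with 0 counts allows an expected count of up to 3, and the 20 libraries together allow less. Il12b had 0 to 8, Il6 0 to 28 and Tnf 0 to 32 counts.

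For comparison, the cell-surface Toll-like receptor system had 8 of 11 genes tested, 5 lower and a median of -0.12. Cd180 and Ly86, a receptor and its partner on B cells and macrophages, had -1.40 ± 0.49 and -0.97 ± 0.37 (SE, edgeR adjusted p = 0.200 and 0.227), and -1.25 ± 0.56 and -0.78 ± 0.49 within libraries 6 to 15. The cytosolic nucleic acid sensors had 9 of 10 tested, 8 lower and a median of -0.26, with Dhx58 at -0.80 ± 0.24 (edgeR adjusted p = 0.158) and Zbp1 at -1.18 ± 0.42 (edgeR adjusted p = 0.204), and at -0.57 ± 0.34 and -0.73 ± 0.34 within libraries 6 to 15. The remaining clients of UNC93B1, Tlr11 and Tlr12, had at most 10 and 6 counts and were not tested. No gene of these pathway lists passed 5% FDR in edgeR, and DESeq2 called only Dnase1l3 and Ikbke among them.

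**Figure D5:**
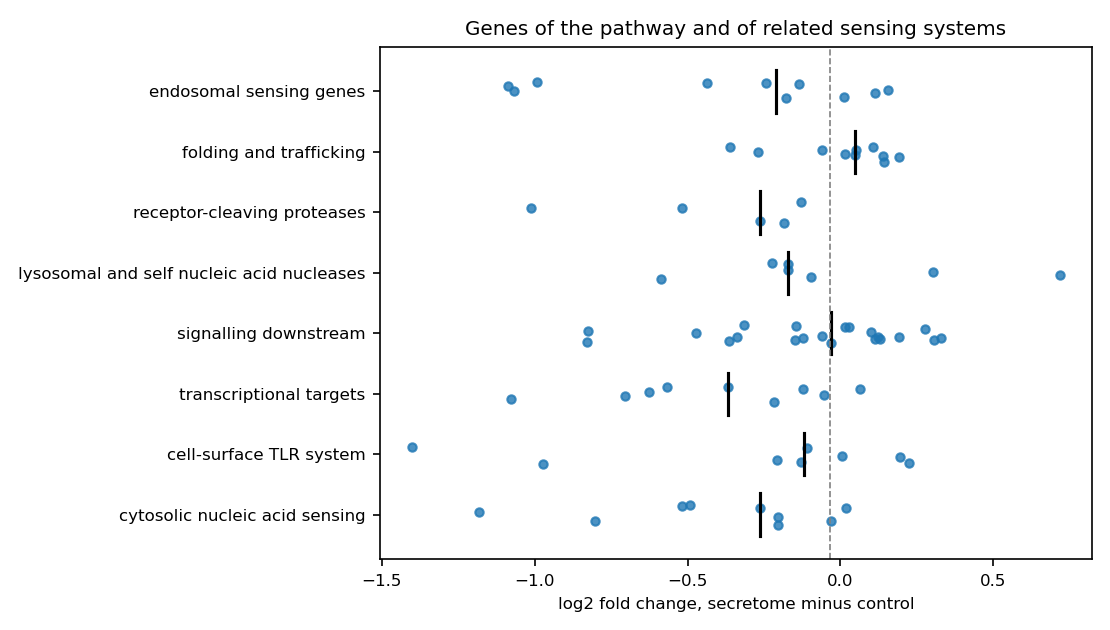
Fitted log2 fold change of secretome against control (horizontal axis) for every tested gene of each pathway list, 1 point per gene, with a black line at the median of each list and a dashed line at the median of all genes tested. Medians lie between -0.37 for the transcriptional targets and 0.05 for folding and trafficking, beside -0.03 over all genes tested.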

How the data were processed

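RNA from 20 quadriceps muscles was sequenced as paired 150-base reads. The authors deposited 1 table of raw read counts per Ensembl gene, and the submitters' processing notes name GRCm39, cutadapt, STAR 2.7.9a and featureCounts 1.6.3. The annotation release and strand setting are not given in the sources used here. Symbols were matched by Ensembl ID through GENCODE M21, which covered 94.0% of the rows and at least 98.6% of the counts in each library. The same annotation gave exonic lengths, on GRCm38, for RPKM.

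Counts were tested across all genes in edgeR 4.0.16 (R 4.3.3) with filterByExpr, TMM scaling, robust quasi-likelihood fits and Benjamini-Hochberg adjustment. DESeq2 1.42.0 was the alternative. SE is the log2 fold change divided by the square root of F, and log2 CPM used a prior count of 2. The effect in libraries 6 to 15 was compared with that in the others by an interaction term. Correlations used 100000 permutations within treatment groups.

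The 10 genes and all lists were chosen with earlier results of these data known. Named genes were the set itself and the 5 genes most like Unc93b1 and most like Pld4. In each pathway list they were the 2 genes with the smallest edgeR p and those past 5% FDR by either tool. Map3k7 was also named, though its p was not among the 2 smallest of its list. Marker genes past 5% FDR in DESeq2 were counted, and of these only Csf1r was named. Correlations with marker lists were added after the data were seen. With 10 muscles a group, intervals rest on the spread between muscles, and for Tlr7, Tlr8, Tlr9 and Tlr13, with as few as 1 to 13 counts in the lowest library, counting error adds to it. The test of 1 marker gene is not reported here.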

Additional observations from a re-analysis of the deposited data

Results flagged for a closer look

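For each of the 10 genes in each treatment group of 10 muscles, the gap between the most extreme muscle and its nearest neighbour was divided by the range of the group and compared with Dixon's 95% critical value for 10 samples. Of 20 such groups, 3 exceeded it, where chance alone gives about 1. Irak4 in control replicate 3 was high at 2.40 log2 CPM (92 counts), with the nearest muscle at 1.45 and a ratio of 0.591. Tlr8 in control replicate 2 was low at -2.54 log2 CPM, with the nearest muscle at -0.58 and a ratio of 0.498, and it rested on 1 count. Tlr9 in secretome replicate 2 was low at -1.62 log2 CPM, with the nearest muscle at -0.74 and a ratio of 0.479, on 4 counts.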

How the results depend on the processing

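The log2 fold change of Unc93b1 lay between -1.08 and -0.83 with any 1 muscle left out and between -1.02 and -0.93 under the other alternatives, that of Pld4 between -1.17 and -0.97 and between -1.18 and -0.96, and that of Tlr9 between -1.18 and -0.77 and between -1.24 and -0.91. At 5% FDR Pld4 passed in DESeq2 and in 1 of 20 fits with a muscle left out (without control replicate 5), Unc93b1 in DESeq2 alone. The set was built on this contrast, so nothing is read from these calls either. The 1 gene past 5% FDR overall became 216 in DESeq2 (146 lower), 0 with the replicate number as a block, 0 in libraries 6 to 15, 0 in the others, and 0 to 15 with a muscle left out (15 without control replicate 5, 13 of them lower). Replicate numbers did not pair the muscles (r of same-numbered muscles -0.24 to 0.221, over 0.1 in 2 of 10 pairs), and the block changed no other call. The 8 genes past the interaction test became 2 without the filter on low counts and 1 to 9 with a muscle left out. The 4 correlated pairs became 1 to 6 with a muscle left out.

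Directions turned for the log2 fold change of Myd88 (-0.00194 with the library set as a term, -0.23 in libraries 6 to 15, -0.22 to 0.33 with a muscle left out) and for those of Tlr13 (0.27 outside libraries 6 to 15, -0.48 to 0.23 with a muscle left out) and Tlr8 (-0.12 to 0.39). With a muscle left out, so did the differences between library sets for Unc93b1 (-0.20 to 0.24) and Pld4 (-0.061 to 0.37), and the correlations of Unc93b1 with Myd88 (-0.24 to 0.241) and Pld3 (-0.021 to 0.213) and of Pld4 with Tlr9 (-0.011 to 0.450), Myd88 (-0.081 to 0.331) and Pld3 (-0.058 to 0.228). The cause was not tested. The adjusted p of Myd88 with the neutrophil markers was 0.0876 once library set means were subtracted.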
